A study of Mus musculus with 6 samples.

Results

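The proteasome genes of mouse pancreatic colonies were described across a control and 2 knockdowns. They were taken by name, as every gene of the deposited table whose symbol is Psma, Psmb, Psmc, Psmd, Psme, Psmf or Psmg followed by a number, which gave 46 of 11164 genes. They are 7 alpha-ring and 7 constitutive beta-ring subunits of the core, 2 immunoproteasome subunits, 6 ATPases and 3 other subunits of the cap base, 8 subunits of the cap lid, 7 assembly chaperones, 4 core activators, 1 core inhibitor and 1 gene that shares the name pattern without being a proteasome subunit. That last gene is Psmc3ip, which codes for a partner of the meiotic recombination machinery. Psma8, Psmb9, Psmb11 and Psme2b had no row in the table and were not analysed here. All 46 genes passed the filter on low values.

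RNA came from colonies that adult C57Bl/6 mice (2 to 4 months old) gave rise to in culture, starting from pancreatic cells sorted for high CD133 and low CD71. The sorted cells took up lentivirus overnight with polybrene and then grew for 3 weeks under puromycin in methylcellulose with Matrigel, serum, conditioned medium, RSPO1, nicotinamide, exendin-4 and activin B, which all groups shared. One group carried 5 pooled shRNA clones directed at Glis3 (a transcription factor with zinc fingers), and another 5 pooled clones directed at CD133, the membrane glycoprotein encoded by Prom1. The control carried 1 shRNA with no mammalian target, so a pool of 5 against 1 clone is a difference that both knockdowns share. Each group had 2 libraries, named 1 and 3 in the labels. Whether both came from 1 animal or culture is not stated in the labels, and p-values reflect only the spread between these libraries, which may be technical.

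The proteasome degrades proteins tagged with ubiquitin. Its barrel-shaped core stacks outer alpha rings, which gate the entrance, on inner beta rings, which hold the peptidases. A cap on the end of the barrel recognises the ubiquitin tag, removes it in the lid and unfolds the substrate with the ATPases of the base. Interferon induces alternative catalytic beta subunits, the immunoproteasome, which change the peptides offered to T cells, and dedicated chaperones assemble core and cap. The transcription factor Nfe2l1 is known to raise proteasome genes when the proteasome is inhibited.

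Promoters of 5 of these genes are shown: that of Psmd10, the 1 gene that passed the test, those of the constitutive catalytic subunits Psmb5 and Psmb6, and those of Psmd4 and Psmb3, which hold a motif known from interferon-regulated genes. The sequences are from RefSeq (GRCm38.p6), read 5′ to 3′ on the gene's strand, and end before the first annotated exon base. Capitals mark the motif searched. In Psmd10 (chrX:140956729-140956961, minus strand) it is CCAAT, the letters of a CCAAT box, found in forward or reverse orientation.
Psmd10: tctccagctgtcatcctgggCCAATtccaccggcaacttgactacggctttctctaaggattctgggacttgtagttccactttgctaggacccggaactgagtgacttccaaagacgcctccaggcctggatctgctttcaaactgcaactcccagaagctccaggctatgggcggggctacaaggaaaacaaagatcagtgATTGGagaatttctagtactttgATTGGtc
In Psmb5 (chr14:54618023-54618245, minus strand) and Psmb6 (chr11:70525107-70525356, plus strand) it is TGACNNNGC, the core letters of the antioxidant response element that NFE2-family factors bind.
Psmb5: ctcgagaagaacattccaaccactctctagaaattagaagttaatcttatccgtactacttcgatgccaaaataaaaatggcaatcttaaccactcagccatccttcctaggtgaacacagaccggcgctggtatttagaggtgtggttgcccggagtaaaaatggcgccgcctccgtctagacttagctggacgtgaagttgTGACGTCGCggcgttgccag
Psmb6: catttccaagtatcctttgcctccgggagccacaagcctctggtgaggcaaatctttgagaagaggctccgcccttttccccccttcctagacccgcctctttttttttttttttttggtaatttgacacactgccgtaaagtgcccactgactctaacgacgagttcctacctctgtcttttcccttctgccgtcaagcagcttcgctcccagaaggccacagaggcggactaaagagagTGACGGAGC
In Psmd4 (chr3:95042615-95042864, minus strand) and Psmb3 (chr11:97703184-97703398, plus strand) it is GAAA, any 2 bases and GAAA again, the letters of an interferon-stimulated response element, in reverse orientation.
Psmd4: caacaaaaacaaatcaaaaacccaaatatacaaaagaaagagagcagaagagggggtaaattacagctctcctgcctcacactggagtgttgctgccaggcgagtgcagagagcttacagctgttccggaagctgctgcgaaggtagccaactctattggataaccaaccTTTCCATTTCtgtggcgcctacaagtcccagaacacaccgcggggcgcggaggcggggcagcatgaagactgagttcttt
Psmb3: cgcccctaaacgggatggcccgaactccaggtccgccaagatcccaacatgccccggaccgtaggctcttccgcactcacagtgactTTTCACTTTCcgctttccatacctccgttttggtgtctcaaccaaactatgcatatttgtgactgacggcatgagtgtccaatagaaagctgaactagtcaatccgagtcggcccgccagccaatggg
RefSeq windows of 300 bases, from 250 before to 50 after the start, were at hand for 39 of the 46 genes and were searched on both strands. CCAAT lay in 13 of the 39 (33.3%), against 37.4% of 32851 mouse promoters and 43.1% of the 8788 genes in the table with a promoter. The 39 and the 8788 were counted per gene, by a match in any of its promoters, and the 32851 per promoter. The letters TGACNNNGC lay in 6 (15.4%), against 12.4% of all promoters and 17.0% of the genes in the table. The interferon-type letters lay in 5, namely Psmb3, Psmd4, Psmd9, Psme1 and Psmg4 (12.8%, against 3.44% and 3.41%). The letters GCGCA, any base and GCGC, bound by nuclear respiratory factor, lay in 7 (17.9%, against 4.6% of all promoters and 12.3% of the genes in the table). A match describes the letters in the window and nothing about binding, and the motifs can overlap one another.

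Levels are given in RPKM (reads per kilobase of transcript and per unit of depth), so that genes can be compared. Estimated depth was 25.8 to 29.2 megareads per library. The targets fell with their own pools: Glis3 stood at 50.3% of control in the Glis3 knockdown (adjusted p = 0.00281, limma) and Prom1 at 46.6% in the CD133 knockdown (adjusted p = 0.00874, but 0.0737 without control library 1 and 0.0602 without control library 3). Epithelial and ductal markers were present for 10 of 11 genes and summed to 9783 and 10370 RPKM in control, 9111 and 7762 in the Glis3 knockdown and 7784 and 8104 in the CD133 knockdown. Spp1 was the largest part of this sum. It measured 6490 and 6733 RPKM in control, 5212 and 4168 in the Glis3 knockdown and 3127 and 4202 in the CD133 knockdown, so the sum does not stand for the other markers. In the CD133 knockdown 4 of the 10 rose (Krt8, Krt19, Cdh1 and Sox9), against 8.16% of all tested genes, and 2 fell (Spp1 and Prom1), against 3.64%. Calls in that comparison depended on both control libraries, as given below. In the Glis3 knockdown 0 were called by limma, against 12.9% of all tested genes, and 3 had an unadjusted p under 0.05, against 30.5%. Leukocyte markers were present for 2 of 12 (Cd74 and Cd68, summing to 6.08 to 7.71 RPKM), and Ptprc, the pan-leukocyte marker, had no row. Markers of acinar cells (2 of 8 in the table) summed to 197 and 305 RPKM in control, 109 and 49.3 in the Glis3 knockdown and 389 and 383 in the CD133 knockdown. Almost all of this sum was 1 gene, as the other, Cela1, stayed at 0.49 to 1.06 RPKM. Fn1, the 1 of 9 mesenchymal markers in the table, stood at 112 and 112 RPKM in control, 53.5 and 56.3 in the Glis3 knockdown and 84.7 and 87.8 in the CD133 knockdown. Endocrine markers (3 of 5) summed to 0.86 to 12.2 RPKM, and none of 5 endothelial markers was in the table.

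Control library 1 stood apart for the proteasome genes. It was the lowest of the 6 libraries for 36 of the 46, against 26.7% of all 10829 genes tested, and the highest for 0. Control library 3 was above control library 1 for 41 of the 46, with a median difference of 0.12 on the log2 scale, while over all genes it was above for 51.1% with a median of 0.0042. The other replicate pairs lay closer, with library 3 above library 1 for 29 of 46 genes in the Glis3 knockdown and for 14 of 46 in the CD133 knockdown. Summed over the 46 genes, the level was 1838 and 2017 RPKM in control, 2072 and 2087 in the Glis3 knockdown and 1993 and 1964 in the CD133 knockdown. Control library 3 thus lay above both CD133 knockdown libraries, and control library 1 below all others. The members' medians and counts of separated genes against control are therefore also given without control library 1.

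**Figure D1:**
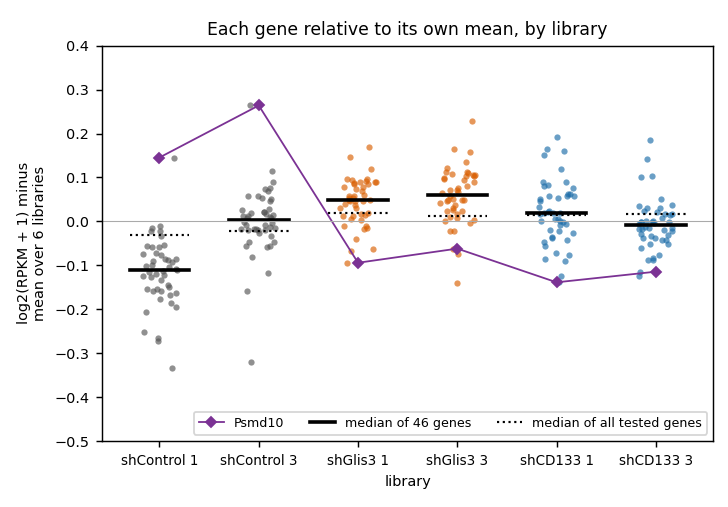
Each point is 1 of the 46 genes in 1 of the 6 libraries (x axis), as log2(RPKM + 1) minus the gene's own mean over the libraries (y axis); thick lines are medians of the 46 genes, dotted lines medians of all tested genes, and the joined diamonds are Psmd10. The thick line lies at -0.11 in control library 1 and between -0.0092 and 0.06 in the other 5, while Psmd10 is high in both control libraries and low in the other 4.

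Core and cap subunits were abundant, the core somewhat more so, and the immunoproteasome subunits were low. In the alpha ring, whose subunits gate the core, control means ran from 30.9 RPKM (Psma3) to 115 RPKM (Psma2), with a median of 48.8. Psma2 measured 108 and 122 RPKM in control, 119 and 117 in the Glis3 knockdown and 115 and 118 in the CD133 knockdown. Psma3 measured 29.3 and 32.5 RPKM in control, 33.8 and 34.2 in the Glis3 knockdown and 34.1 and 32.6 in the CD133 knockdown. The groups overlapped for Psma2, and both knockdowns lay above both controls for Psma3.

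In the constitutive beta ring the control means ran from 24.0 RPKM (Psmb7) to 146 RPKM (Psmb1), a ratio of 6.09, with a median of 62.9. Psmb1, a beta subunit with no peptidase activity of its own, measured 140 and 153 RPKM in control, 157 and 159 in the Glis3 knockdown and 135 and 142 in the CD133 knockdown. It was the most abundant of the 46 genes. The immunoproteasome subunits Psmb10 and Psmb8 had control means of 6.57 and 1.04 RPKM, under every constitutive core subunit.

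Among the base ATPases, the motor of the cap, the control means ran from 20.5 RPKM (Psmc2) to 85.8 RPKM (Psmc6), with a median of 54.1. The other base subunits ran from 23.4 RPKM for Psmd1 to 75.2 RPKM for Psmd2, both large scaffold proteins of the base. Psmd1 measured 23.0 and 23.7 RPKM in control, 24.2 and 24.9 in the Glis3 knockdown and 24.0 and 24.0 in the CD133 knockdown. For Psmd2 the values were 72.6 and 77.7 RPKM in control, 80.7 and 84.4 in the Glis3 knockdown and 79.8 and 76.2 in the CD133 knockdown. Both Glis3 knockdown libraries lay above both controls for each, and neither was called. Lid subunits had the narrowest span, from 23.5 RPKM (Psmd11) to 64.9 RPKM (Psmd8), a ratio of 2.76. Psmd11 measured 22.6 and 24.4 RPKM in control, 24.8 and 25.9 in the Glis3 knockdown and 23.9 and 22.5 in the CD133 knockdown, with both Glis3 knockdown libraries above the other 4. Psmd8 measured 62.4 and 67.4 RPKM in control, 65.7 and 64.0 in the Glis3 knockdown and 65.2 and 64.9 in the CD133 knockdown, so that the control libraries bracketed the other 4.

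Chaperones and regulators spanned more. The cap chaperones ran from 3.98 RPKM (Psmd9) to 29.0 RPKM (Psmd10) in control, and the core chaperones from 2.49 RPKM (Psmg3) to 17.8 RPKM (Psmg2). Psmd9 measured 3.76 and 4.20 RPKM in control, 3.9 and 4.02 in the Glis3 knockdown and 3.93 and 3.83 in the CD133 knockdown, all within the control span. Psmg2, which pairs with Psmg1 in alpha-ring assembly, measured 17.2 and 18.3 RPKM in control, 17.3 and 18.4 in the Glis3 knockdown and 19.2 and 18.7 in the CD133 knockdown. Psmg3, the partner of Psmg4, measured 2.11 and 2.87 RPKM in control, 2.75 and 2.85 in the Glis3 knockdown and 3.15 and 2.78 in the CD133 knockdown. Its lowest library was control library 1, on about 50 estimated reads, and no chaperone but Psmd10 was called in any comparison.

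Among activators and the inhibitor, Psme3, the nuclear activator, was highest at 59.6 RPKM and Psmf1, the inhibitor, lowest at 6.33 RPKM, a ratio of 9.41. Psme3 measured 57.6 and 61.6 RPKM in control, 63.3 and 67.0 in the Glis3 knockdown and 64.97 and 60.1 in the CD133 knockdown. The values of Psmf1 were 6.06 and 6.61 RPKM in control, 6.89 and 6.77 in the Glis3 knockdown and 6.77 and 6.10 in the CD133 knockdown. For each of these the Glis3 knockdown lay above both controls and the CD133 knockdown overlapped with them. Psmc3ip, the gene that is no subunit, measured 3.17 and 2.79 RPKM in control, 3.05 and 3.96 in the Glis3 knockdown and 2.99 and 3.54 in the CD133 knockdown, with overlapping groups.

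**Figure D2:**
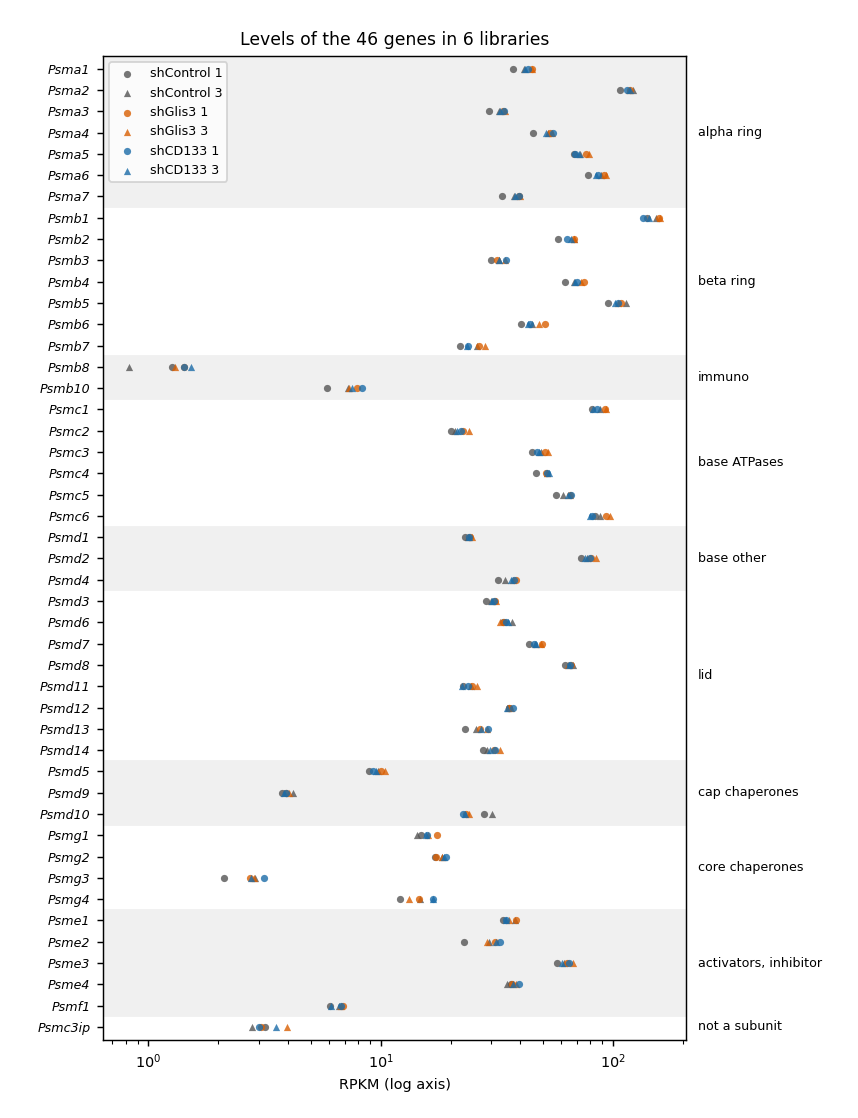
Points are the RPKM (x axis, log scale) of each of the 46 genes (y axis, grouped by role) in each library, coloured by group with circles for library 1 and triangles for library 3. Most core and cap subunits lie between 20 and 160 RPKM and Psmb8 near 1 RPKM.

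The ratio of core to cap was steady across libraries. The mean level of the 14 constitutive core subunits divided by that of the 17 base and lid subunits was 1.4 and 1.46 in control, 1.45 and 1.43 in the Glis3 knockdown and 1.41 and 1.43 in the CD133 knockdown. The values of both knockdowns lay within the span of the control libraries. Over the 6 libraries the coefficient of variation of the 46 genes had a median of 5.87%, from 2.4% for the lid subunit Psmd12 to 19.1% for Psmb8. All tested genes had a median of 8.23%. Among genes with a mean of 20 to 160 RPKM the medians were 5.78% for 36 proteasome genes and 6.53% for 2660 genes.

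The first comparison asks whether proteasome genes depend on Glis3. In the Glis3 knockdown 1 of the 46 genes fell, Psmd10, 0 rose and 45 did not pass the test (limma on log2(RPKM + 1), adjusted p under 0.05). Of all tested genes 4.53% fell and 8.39% rose. In bulk RNA, fewer cells of a type and less RNA per cell cannot be told apart. At an unadjusted p under 0.05 there were 13 higher and 1 lower, or 14 of 46, where all tested genes gave 30.5%.

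Psmd10 (ENSMUSG00000031429.14, chromosome X, 140948429 to 140956728, minus strand, GRCm38) codes for gankyrin, a chaperone that holds base ATPases during cap assembly and is described as an oncoprotein in human liver. It measured 27.8 and 30.2 RPKM in control, 23.4 and 23.9 in the Glis3 knockdown and 22.6 and 23.0 in the CD133 knockdown. Both control libraries lay above the other 4, and the knockdowns were close to each other. The log2 fold change in the Glis3 knockdown was -0.28 (SE 0.0582, 95% confidence interval -0.42 to -0.14, adjusted p = 0.0281, limma), a level of 81.5% of control. The call was lost when any 1 of the 6 libraries was left out, with fold changes from -0.34 to -0.22 and adjusted p from 0.0552 to 0.112. Leaving out a control library cut the calls over all tested genes as well, from 1400 to 21 without library 1 and 82 without library 3. About 835 to 1262 reads stood behind the Psmd10 value in each library, by the estimated depth.

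On the log2(RPKM + 1) scale the 95% confidence intervals of all 46 genes stayed within 1.5-fold, as did those of 9477 of 10829 tested genes. For low genes this does not bound the fold of RPKM itself, as the scale understates their changes. Psmb8, for one, had a mean RPKM at 131% of control. Fold changes were above 0 for 42 of 46 genes, against 61.2% of all tested genes, and the median was 0.13 against 0.0444 over all genes. Both Glis3 knockdown libraries lay above both controls for 31 of the 46, against 38.5% of all tested genes, and below both for 1, against 21.1%. Without control library 1 the median was 0.06, against 0.0396 over all tested genes. Both knockdown libraries lay above control library 3 for 33 of 46, against 48.7% of all tested genes.

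By role, 7 of 7 alpha subunits had a fold change above 0 (median 0.15), as did 7 of 7 constitutive beta subunits (0.11) and 6 of 6 base ATPases (0.14), with 0 called in each. The lid had 6 of 8 above 0 (median 0.10). The smallest adjusted p after Psmd10 was that of Psmc2, a base ATPase, which measured 20.03 and 20.94 RPKM in control, 22.7 and 24.1 in the Glis3 knockdown and 22.2 and 21.4 in the CD133 knockdown. Its log2 fold change was 0.18 (adjusted p = 0.0813, limma). Psmb6, Psmg1, Psmd4, Psmb4 and Psma1 followed with fold changes of 0.18 to 0.21 and adjusted p from 0.0859 to 0.0963. Psmg1 is a chaperone of alpha-ring assembly and Psmd4 a ubiquitin receptor of the cap.

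Summed levels of core and of cap both put control library 1 lowest and the Glis3 knockdown highest. The 14 constitutive core subunits summed to 847 and 951 RPKM in control, 977 and 978 in the Glis3 knockdown and 918 and 916 in the CD133 knockdown. The 17 base and lid subunits summed to 737 and 790 RPKM in control, 817 and 832 in the Glis3 knockdown and 793 and 776 in the CD133 knockdown. Control library 3 and the CD133 knockdown lay between these. The levels of Spp1 and Fn1 and the acinar sum, almost all of it 1 gene, also lay apart between the Glis3 knockdown and control. Their part in these values was not tested.

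**Figure D3:**
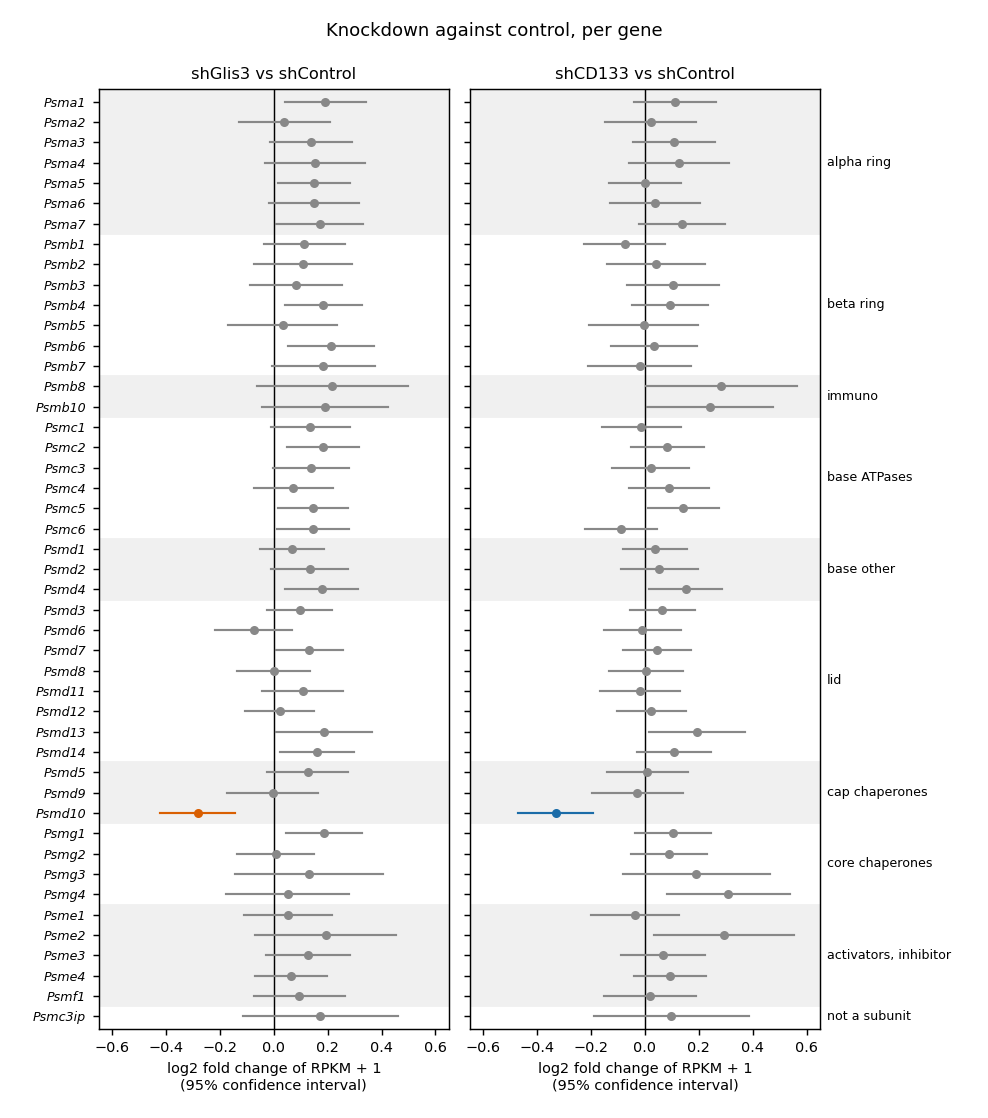
For each of the 46 genes (y axis, grouped by role) the point is the log2 fold change of RPKM + 1 against control and the line its 95% confidence interval (x axis), for the Glis3 knockdown at left and the CD133 knockdown at right. Psmd10, coloured, is the 1 gene called, at -0.28 and -0.33; at left 42 of 46 points lie above 0 and at right 35 of 46.

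The CD133 knockdown was compared with the same control libraries, so its values are not independent of those above. Again 1 of the 46 genes fell, Psmd10, 0 rose and 45 did not pass (all tested genes: 3.64% fell, 8.16% rose). The log2 fold change of Psmd10 was -0.33 (SE 0.0582, interval -0.47 to -0.19, adjusted p = 0.0217, limma), a level of 78.7% of control. The call was lost without either control or either CD133 knockdown library (fold changes -0.39 to -0.27, adjusted p 0.0732 to 0.135), and it was kept without either Glis3 knockdown library. Over all tested genes 1278 were called, 0 of them without control library 1 (2441 at an unadjusted p under 0.05) or without control library 3 (2670), 30 without CD133 knockdown library 1 and 503 without library 3.

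The median over the 46 genes was 0.06, against 0.0432 over all tested genes, with 35 above 0, against 61.4% of all. At an unadjusted p under 0.05 there were 8 of 46, against 31.1% of all tested genes. Both CD133 knockdown libraries lay above both controls for 18 of 46 genes, against 40.3% of all tested genes, and below both for 2, against 22.1%. Without control library 1 the median was 0.02, against 0.0383 over all tested genes. The count above control library 3 was 19, against 50.1% of all tested genes. Without control library 3 the median was 0.11, against 0.0471 over all tested genes, and the count above control library 1 was 40, against 53.2%. The count therefore moved with which control library was used. All 46 intervals lay within 1.5-fold on the log2(RPKM + 1) scale, as did those of 9505 of 10829 tested genes. This does not bound the fold of RPKM for low genes. The mean RPKM of Psmb8 stood at 141% of control. Spp1, Fn1 and the acinar sum lay apart between the CD133 knockdown and control too, and their part here was not tested.

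After Psmd10 the smallest adjusted p belonged to Psmg4, a chaperone of alpha-ring assembly. It measured 12.1 and 14.8 RPKM in control, 14.7 and 13.2 in the Glis3 knockdown and 16.9 and 16.8 in the CD133 knockdown, where both libraries lay above the other 4. Its log2 fold change was 0.31 (adjusted p = 0.0821, limma). Psme2, an interferon-induced subunit of the core activator, measured 22.9 and 29.3 RPKM in control, 30.9 and 28.6 in the Glis3 knockdown and 32.6 and 31.3 in the CD133 knockdown. Its fold change in the CD133 knockdown was 0.29 (adjusted p = 0.126). Psme1, its partner, had a fold change of -0.04 (adjusted p = 0.751) and groups that overlapped.

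The 2 knockdowns were also set against each other. In the Glis3 knockdown against the CD133 knockdown 0 of 46 genes were higher and 0 lower by limma, where 1.61% and 2.46% of all tested genes were (4.06% in all), and 7 had an unadjusted p under 0.05, against 21.9% of all. The median fold change was 0.04, with 33 above 0, against 50.5% of all tested genes. All 46 intervals lay within 1.5-fold on the log2(RPKM + 1) scale, with bounds from -0.49 to 0.39. Those of 9880 of 10829 tested genes did as well. Both Glis3 knockdown libraries lay above both CD133 knockdown libraries for 21 genes, against 27.9% of all tested genes, and below both for 4, against 26.8%.

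The base ATPase Psmc6 came nearest to the threshold here. It measured 83.4 and 88.2 RPKM in control, 93.0 and 97.1 in the Glis3 knockdown and 81.6 and 79.7 in the CD133 knockdown. The Glis3 knockdown was the highest group and the CD133 knockdown the lowest, with no overlap. The fold change between them was 0.23 (interval 0.10 to 0.37, adjusted p = 0.0752, limma). For Psmd10 it was 0.05 (adjusted p = 0.68).

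Constitutive and immunoproteasome catalytic subunits were compared as pairs, since the one replaces the other in the beta ring. Of 3 pairs, 2 could be measured. Psmb5 carries the chymotrypsin-like activity and measured 95.6 and 114 RPKM in control, 108 and 105 in the Glis3 knockdown and 105 and 102 in the CD133 knockdown, all within the control span. Psmb8, its interferon-induced counterpart, measured 1.26 and 0.83 RPKM in control, 1.43 and 1.30 in the Glis3 knockdown and 1.43 and 1.52 in the CD133 knockdown. All 4 knockdown libraries were above both controls, on about 39 to 68 estimated reads per library, and neither log2 fold change passed the test (0.22, adjusted p = 0.259, and 0.28, adjusted p = 0.157, limma).

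Psmb8 made up 1.3% and 0.725% of the summed RPKM of Psmb8 and Psmb5 in control, 1.3% and 1.22% in the Glis3 knockdown and 1.34% and 1.46% in the CD133 knockdown. The group means were 1.01% ± 0.408, 1.26% ± 0.0567 and 1.4% ± 0.087 (SD of 2 libraries each). Differences from control gave p = 0.667 and p = 0.333 (two-sided exact permutation test), where 0.333 is the smallest p that 2 against 2 libraries allow, so this design cannot reach 0.05.

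Psmb7 carries the trypsin-like activity and measured 22.1 and 26.0 RPKM in control, 26.6 and 28.0 in the Glis3 knockdown and 23.7 and 23.6 in the CD133 knockdown. Psmb10, its counterpart, measured 5.90 and 7.23 RPKM in control, 7.90 and 7.31 in the Glis3 knockdown and 8.33 and 7.51 in the CD133 knockdown. Its fold changes were 0.19 (adjusted p = 0.241) and 0.24 (adjusted p = 0.152, limma). The share of Psmb10 in the pair was 21.1% and 21.8% in control, 22.9% and 20.7% in the Glis3 knockdown and 26.0% and 24.2% in the CD133 knockdown. Both CD133 knockdown libraries lay above the other 4, and the exact permutation p was 0.333 against control and 1 for the Glis3 knockdown against control.

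The third constitutive catalytic subunit, Psmb6, carries the caspase-like activity. It measured 40.3 and 45.0 RPKM in control, 50.8 and 48.1 in the Glis3 knockdown and 43.9 and 43.2 in the CD133 knockdown. Its Glis3 knockdown libraries were the highest, with a fold change of 0.21 (adjusted p = 0.0859, limma). Leukocytes are known for high immunoproteasome levels. The sums of their 2 markers in the table overlapped between groups. They were 6.42 and 6.83 RPKM in control, 7.2 and 6.18 in the Glis3 knockdown and 7.71 and 6.08 in the CD133 knockdown. Cd68 was most of each sum. Cd74 measured 1.19 and 1.0 RPKM in control, 0.87 and 0.45 in the Glis3 knockdown and 1.32 and 0.96 in the CD133 knockdown. The part of leukocytes in the immunoproteasome values was not tested.

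**Figure D4:**
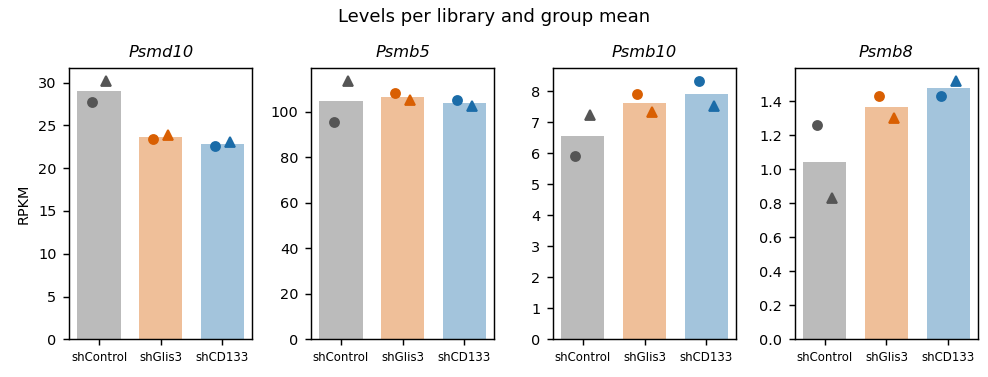
Bars are group means in RPKM (y axis, from 0) and points the 2 libraries of each group (circle library 1, triangle library 3) for Psmd10, Psmb5, Psmb10 and Psmb8. Psmd10 is lower in both knockdowns without overlap (27.8 and 30.2 in control), and the control libraries of Psmb5 (95.6 and 114) enclose the other 4.

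Genes that work with the proteasome were taken from a list of 37 names, of which 33 were in the table. Some genes were listed under a second name as well, so not every absent name is an absent gene. The list holds ubiquitin carriers, shuttle factors, bound ligases and deubiquitinases, and transcriptional regulators, beside the cap subunits Adrm1 and Sem1 and the core chaperone Pomp. In the Glis3 knockdown 3 of 33 rose and 0 fell, where 8.39% of all tested genes rose and 4.53% fell, and the median fold change was 0.06. Nfe2l2, the regulator of antioxidant genes, measured 178 and 173 RPKM in control, 224 and 236 in the Glis3 knockdown and 163 and 169 in the CD133 knockdown. It was higher in the Glis3 knockdown than in either other group (log2 fold change 0.39 against control, adjusted p = 0.0128, and 0.47 against the CD133 knockdown, adjusted p = 0.0171, limma). Zfand2a, a stress-induced factor that binds the proteasome, and Ube3c, a ubiquitin ligase that binds it, were the other two.

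Zfand2a and Ube3c were also the 2 of 33 that rose in the CD133 knockdown, where 8.16% of all tested genes rose. Zfand2a measured 5.63 and 5.52 RPKM in control, 7.61 and 7.51 in the Glis3 knockdown and 6.90 and 7.17 in the CD133 knockdown (fold changes 0.38, adjusted p = 0.0121, and 0.29, adjusted p = 0.0268). Ube3c measured 11.3 and 11.1 RPKM in control, 14.1 and 16.6 in the Glis3 knockdown and 15.9 and 14.7 in the CD133 knockdown (0.42, adjusted p = 0.0263, and 0.42, adjusted p = 0.0291). Both knockdowns lay above control for each. Nfe2l1 measured 63.2 and 61.9 RPKM in control, 55.8 and 53.5 in the Glis3 knockdown and 57.8 and 59.2 in the CD133 knockdown, with a fold change of -0.19 in the Glis3 knockdown that was not called (adjusted p = 0.0571). With either control library left out, 0 of the 33 were called by limma against control in either knockdown (3 to 5 at an unadjusted p under 0.05). Without either CD133 knockdown library 0 were called in that knockdown, and without Glis3 knockdown library 3 the count in the Glis3 knockdown was 1. The call of Nfe2l2 between the knockdowns was kept without Glis3 knockdown library 1 and lost when any of the other 5 was left out.

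Interferon-regulated and peptide-loading genes, which act with the immunoproteasome, were listed as 24, of which 20 were in the table and 19 tested. In the CD133 knockdown 5 of 19 rose and 0 fell (median 0.07), among them Tap1, Stat2, Irf1 and Tap2, where 8.16% of all tested genes rose and 3.64% fell. In the Glis3 knockdown 3 of 19 rose and 0 fell (median 0.05), among them Tap1 and Calr, where 8.39% of all tested genes rose and 4.53% fell. Of 10 members at an unadjusted p under 0.05 there, against 30.5% of all tested genes, 5 were higher and 5 lower. With both libraries, 9 of the 19 lay above both controls, against 38.5% of all tested genes, and 6 below both, against 21.1%. Tap1, which carries peptides into the endoplasmic reticulum, measured 2.14 and 2.18 RPKM in control, 3.04 and 3.80 in the Glis3 knockdown and 4.03 and 3.45 in the CD133 knockdown. Its fold changes were 0.48 (adjusted p = 0.0339) and 0.58 (adjusted p = 0.0233, limma). Its exons overlap those of Psmb9 on the opposite strand by 212 bases, so reads of the pair could be shared if strand was not used in counting.

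Irf1, an interferon-response transcription factor, differed between the knockdowns, with a fold change of -0.41 for Glis3 against CD133 (adjusted p = 0.0316, limma). It measured 11.0 and 10.5 RPKM in control, 10.7 and 9.57 in the Glis3 knockdown and 13.45 and 13.98 in the CD133 knockdown, which was above the other 4 libraries, and its exons overlap those of a gene on the opposite strand. Stat2, a mediator of interferon signalling, measured 2.71 and 2.35 RPKM in control, 3.26 and 2.95 in the Glis3 knockdown and 3.76 and 4.79 in the CD133 knockdown and had a fold change of 0.57 in the CD133 knockdown (adjusted p = 0.0268). Calr, a chaperone of the endoplasmic reticulum, measured 302 and 322 RPKM in control, 378 and 387 in the Glis3 knockdown and 367 and 372 in the CD133 knockdown, with a fold change of 0.29 in the Glis3 knockdown (adjusted p = 0.031). Tap2, the partner of Tap1, had a fold change of 0.36 in the CD133 knockdown (adjusted p = 0.0479), and its exons overlap those of 2 genes on the opposite strand. For Stat2, Calr and Tap2 both knockdowns lay above both controls. Between the knockdowns, the call of Irf1 too was kept without Glis3 knockdown library 1 and lost when any of the other 5 was left out. As with the first list, 0 of 19 were called by limma against control with either control library left out (6 to 10 at an unadjusted p under 0.05). Without Glis3 knockdown library 3 the count in the Glis3 knockdown was 0, and without 1 CD133 knockdown library it was 1. In the CD133 knockdown the count was 0 and 1 without its libraries 1 and 3. The median was -0.0108 and -0.0045 (Glis3 and CD133 knockdown) without control library 1.

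Other large complexes give a scale for these values. The 79 cytosolic ribosomal protein genes had a median fold change of -0.17 in the Glis3 knockdown, where 7 fell and 0 rose (all tested genes: 4.53% fell), and of -0.37 in the CD133 knockdown, where 67 fell and 0 rose (3.64%). Without control library 1 these medians were -0.22 and -0.43 and without control library 3 -0.11 and -0.31, with 0 called (14 to 75 at an unadjusted p under 0.05, limma). The 7 were 0 or 1 when any other library was left out and 0 under the replicate block. The 67 were 0 without CD133 knockdown library 1 (69 at an unadjusted p under 0.05), 16 without its library 3 and 16 under the block.

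The proteasome genes had medians of 0.13 and 0.06. The 76 mitochondrial ribosomal protein genes had medians of 0.06 and 0.05, with 3 rising and 0 falling in each knockdown (all tested genes: 8.39% and 8.16% rose). Without control library 1 these medians were 0.0029 and -0.0249 and without control library 3 0.13 and 0.11, with 0 called (4 to 25 at an unadjusted p under 0.05, limma). The 74 subunits of oxidative phosphorylation had medians of 0.11 and 0.05. In the Glis3 knockdown 3 were higher and 1 lower, against 8.39% and 4.53% of all tested genes. In the CD133 knockdown 0 were higher and 1 lower, against 8.16% and 3.64%. Without control library 1 their medians were 0.02 and -0.0112 and without control library 3 0.19 and 0.11, with 0 called (6 to 40 at an unadjusted p under 0.05). Calls in these 2 lists against control were 0 to 2 when a library of the knockdown compared was left out. These complexes were taken by gene name. The difference between these lists and the proteasome genes was not tested.

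Some of the 46 values are less certain because of neighbours or copies. Exons of Psma4, Psma5, Psmb7, Psmb8, Psmc3, Psmc3ip, Psmd13, Psmd3 and Psme1 overlap those of a gene on the opposite strand, and whether counting used strand is not given in the sources used here. Psmb5, Psmd1 and Psmg3 overlap a gene on the same strand. For 10 genes the annotation holds a transcript of another gene that matches at 95% or more over at least 300 bases. These are Psma3, Psma4, Psma5, Psmb3, Psmb5, Psmc1, Psmd1, Psmd11, Psmd2 and Psme2. Their reads may have been split with the matching gene or left uncounted. How such reads were handled is not given in the sources used here. None of the matching genes had a row in the deposited table. For Psmd1 the match is Gm21972, the gene that overlaps it on the same strand. Psmd10 had neither an overlapping gene nor such a match.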

How the data were processed

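Colony RNA was made into poly(A)-selected libraries with a kit that keeps strand, per the labels' protocols. The authors deposited 1 table of RPKM values, 11164 genes by 6 libraries. Its upstream tools, per the submitters' processing notes, were bcl2fastq 2.18.0.12, TopHat2 and HTSeq, and its build mm10. Settings, annotation, library totals and strand use: not given in the sources used here. Each gene reached at least 1.0 RPKM in some library, and genes below that have no value.

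The scale was log2(RPKM + 1), which understates changes of low genes, with no added scaling and a filter of 1 RPKM on the mean (10829 genes kept). Using limma 3.58.1 (R 4.3.3), 3 group means were fitted to every gene with empirical Bayes and a variance trend (3 residual and 3.69 prior degrees of freedom). Tests were two-sided, with Benjamini-Hochberg adjustment over all tested genes at 0.05. Fold changes are on this scale, and percentages of control are ratios of mean RPKM. The fit was tested on simulated data.

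Depth came from the step sizes of values under 3 RPKM in transcripts under 1200 bases. Of 91 to 103 such values per library, 56.8% to 62.6% lay within 0.15 of a whole read, where chance gives 30% at a fixed depth. The depth was chosen as the one with the highest such share, so the share is no test of the depth. The share was too low to recover reads, so no count test was run. Overlaps used GENCODE M21 (GRCm38), copies were sought with BLAST 2.17.0, and promoters came from RefSeq (GRCm38.p6).

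The genes, lists and alternatives were chosen with earlier results of these data known. Values in every library are given for called genes, catalytic pairs, the highest and lowest genes of a role and up to 4 called members of each other list, except 1 gene that is not reported here. The genes nearest to the threshold, and Nfe2l1, were picked after their values were seen. Alternatives were other pseudocounts (0.1 and 5), filters, scalings, groups fitted, no variance trend, a replicate block and leaving out each library. Counts of separated genes and of other lists without single libraries were added after seeing the data.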

Additional observations from a re-analysis of the deposited data

How the results depend on the processing

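The call of Psmd10 depended on the processing. In the Glis3 knockdown 0 of the 46 genes were called by limma with only the 2 groups compared in the fit (Psmd10 adjusted p = 0.0551), with the replicate block (0.0594, 8 at an unadjusted p under 0.05), and when any 1 library was left out (0 to 0), while 14 had an unadjusted p under 0.05 in the fit reported. In the CD133 knockdown 0 were called with the replicate block (0.0519, 3 at an unadjusted p under 0.05), and 0 to 1 without 1 library. Leaving out a library or adding a block leaves fewer degrees of freedom. The numbers 1 and 3 do not pair the libraries by any label: deviations from group means correlated at -0.372 (control and Glis3 knockdown), -0.428 (control and CD133 knockdown) and 0.0322 (the knockdowns) over 10829 genes. In the Glis3 against the CD133 knockdown 0 (4 unadjusted) were called under the block as well.

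The median fold change in the Glis3 knockdown was 0.0751 with median centring and 0.0638 to 0.1825 without 1 library. In the CD133 knockdown it was 0.0059 with median centring and 0.0183 to 0.1101 without 1 library; the cause was not tested. With 1 RPKM added to both subunits the Psmb8 share was 1.93%, 2.15% and 2.31% (control, Glis3, CD133), and the Psmb10 share 23.2% in control and 26.6% in the CD133 knockdown. Single-gene results were recomputed in 2058 combinations: 1942 kept direction and side of the threshold or moved within their error, 103 moved further, 13 lost a call and 0 called values reversed; 81 uncalled fold changes switched sign. Psmd10 was the 1 gene with calls to lose, so all 13 losses were of Psmd10. With the block, 0 associated genes were called in the CD133 knockdown and 0 interferon genes in either knockdown (3, 8 and 8 at an unadjusted p under 0.05, limma). Psmb8 and Psmg3, at under 80 estimated reads per library, are the genes most limited by depth.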
